A study of Mus musculus with 10 samples.

Results

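The 10 genes described here are transcripts of the imprinted regions around Meg3 and H19, with 4 imprinted genes from elsewhere. They were chosen by name from a table of 78317 genes (Meg3, Rian, Mirg, Dlk1, H19, Igf2, Peg3, Mest, Cdkn1c and Plagl1), and each name occurred once in that table. RNA was measured in wildtype mouse embryonic fibroblasts (cultured connective tissue cells of the embryo) carrying T antigen, the viral protein that binds and disables p53 and Rb and so keeps such cells dividing (immortalized cells). All cells had first been kept in complete medium at 10% CO2 and 37 °C. One group was then held at 2% CO2 for 24 h (5 libraries) and the other at 10% CO2 for 24 h (5 libraries). Batch 1 held replicates 1 to 3 of each group, and batch 2 held replicates 4 and 5. The labels do not say what a batch was, and the sources used here do not say whether the libraries came from separate cultures or lines. The p-values below therefore measure differences among libraries that may be technical. The series title places the comparison in the study of autophagy at a CO2 level below the one the cells were kept at.

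An imprinted gene is expressed mainly from the copy inherited from one parent, and which copy is used is set by DNA methylation of a control region laid down in the egg or the sperm. On distal mouse chromosome 12, the long non-coding RNAs Meg3, Rian and Mirg are expressed from the maternal chromosome in the same direction and host many small nucleolar RNAs and microRNAs, while the neighbouring protein-coding gene Dlk1 is expressed from the paternal chromosome. On distal chromosome 7, H19 (a maternally expressed non-coding RNA) and Igf2 (a paternally expressed growth factor) share enhancers, and binding of CTCF to the unmethylated control region between them keeps Igf2 silent on the maternal copy. In embryonic fibroblasts and other mesenchymal cells these genes belong to a set of imprinted growth regulators that are active in the embryo and shut down in most tissues after birth.

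Depth was uneven, between 178676 estimated counts in 2% CO2 replicate 2 and 12354538 in 2% CO2 replicate 4. The shallow libraries were 2% CO2 replicates 2 and 3 and 10% CO2 replicate 5, with 178676, 506405 and 892318 counts, and the other 7 libraries held at least 2621598 counts. In 2% CO2 replicate 2, a count of 0 allows up to 16.8 CPM (counts scaled so that a library sums to 1e+06), a limit of 3 counts that covers counting error only. Of the 10 fibroblast markers, 8 averaged over 5 CPM, Lum held 3 counts in all libraries together, and the summed level of the list was between 4688 and 8751 CPM at 2% CO2 and between 8563 and 13263 CPM at 10% CO2. Of these 10 markers, 5 were lower at 2% CO2 and 0 were higher, beside 6.73% lower and 5.3% higher of all tested genes. The lower ones were led by the collagens Col1a1 (a log2 fold change of -1.15), Col1a2 (-0.95) and Col3a1 (-1.75). Pdgfra (72 counts in all libraries together) and Lum were not tested. Pdgfrb, Fn1 and S100a4 gave -0.34, -0.30 and 0.82 and did not pass (edgeR adjusted p of 0.473, 0.0856 and 0.0541). The summed markers of blood, skeletal muscle and pluripotent cells reached no more than 5.60 CPM in any library. Summed epithelial markers lay between 2.28 and 30.8 CPM at 2% CO2 and between 4.70 and 9.25 CPM at 10% CO2, and those of endothelium between 7.90 and 14.97 CPM at 2% CO2 and between 4.07 and 7.73 CPM at 10% CO2. Summed markers lay between 10.7 and 23.6 CPM at 2% CO2 and between 17.1 and 40.2 CPM at 10% CO2 for cartilage, where Acan was lower, and Kdr was the 1 endothelial marker that was higher. Those of neurons (35.5 to 67.2 CPM at 2% CO2 and 40.1 to 68.3 CPM at 10% CO2) and fat (0 to 9.71 CPM at 2% CO2 and 3.36 to 11.3 CPM at 10% CO2) had no called member. The part that these marker differences play in the results below was not tested. Estimated counts were fractions in 6 libraries for Meg3 and Rian, in 5 for Igf2 and Plagl1, in 3 for H19 and in 1 for Mirg, and their origin is not stated in the labels.

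The first question was whether the imprinted genes differed between 2% and 10% CO2. Across all genes, 1588 of 13198 tested (12%) differed in a model that includes batch. At 2% CO2, 700 (5.3%) were higher and 888 (6.73%) were lower. With scaling by library total in place of TMM, which moved the median of all genes by 0.07, the split was 1031 higher and 614 lower, 62.7% higher in place of 44.1%, and the same 4 of the 10 genes passed. All 10 imprinted genes passed the filter on low counts and were tested. Meg3, Rian and Mirg were lower at 2% CO2, Plagl1 was higher, and the other 6 did not pass an adjusted p of 0.05. The median log2 fold change (2% minus 10% CO2) of the 10 genes was -0.42, beside 0.00 for all genes tested. Because the genes were picked with earlier results of these data known, these shares describe the 10 genes and are no independent support.

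These 3 RNAs (Meg3, Rian and Mirg) follow one another on the chromosome, and the windows around their RefSeq starts are shown because these genes moved together. Each runs from 250 bases before to 50 bases after the annotated start on the plus strand of build GRCm38.p6, a build other than that of the counts. The Meg3 window lies at chr12:109540746-109541045, that of Rian at chr12:109603695-109603994 and that of Mirg at chr12:109734731-109735030. Capitals in the Meg3 window mark GCGGCA, the reverse complement of TGCCGC, and TGACGTCA.
Meg3: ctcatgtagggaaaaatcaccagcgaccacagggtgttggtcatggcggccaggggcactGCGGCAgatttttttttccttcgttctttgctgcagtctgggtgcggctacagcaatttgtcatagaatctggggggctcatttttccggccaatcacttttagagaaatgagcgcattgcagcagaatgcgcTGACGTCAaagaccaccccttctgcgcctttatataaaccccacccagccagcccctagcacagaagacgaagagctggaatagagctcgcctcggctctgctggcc
Rian: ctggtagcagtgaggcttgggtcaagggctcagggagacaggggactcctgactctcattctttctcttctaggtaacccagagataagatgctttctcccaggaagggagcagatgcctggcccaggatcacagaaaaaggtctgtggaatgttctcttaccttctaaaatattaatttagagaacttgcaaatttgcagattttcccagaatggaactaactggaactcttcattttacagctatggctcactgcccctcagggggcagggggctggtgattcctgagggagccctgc
Mirg: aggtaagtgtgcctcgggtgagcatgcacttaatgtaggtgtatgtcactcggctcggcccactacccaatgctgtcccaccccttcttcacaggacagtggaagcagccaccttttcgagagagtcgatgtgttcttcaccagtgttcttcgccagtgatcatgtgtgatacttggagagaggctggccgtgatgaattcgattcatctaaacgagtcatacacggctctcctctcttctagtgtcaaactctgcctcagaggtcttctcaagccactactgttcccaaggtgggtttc
TGACGTCA is the cAMP response element (a palindrome), TGCCGC is the core read by ZFP57, the zinc finger protein that keeps imprints methylated, and CACGTG is the E-box. All were searched on both strands, and no matches overlapped. The Meg3 window shown and the Peg3 window held TGACGTCA, as did 1.79% of 32851 RefSeq windows of the same length. TGCCGC occurred in a window of Meg3, Igf2, Mest and Plagl1 and in 11.6% of all windows. CACGTG occurred in the Plagl1 window and in 7.15% of all windows. The windows held 13 CpG dinucleotides for Meg3 (the window shown), 0 for Rian, 10 for Mirg, 9 for Dlk1 and 26 for Plagl1, beside a median of 7 over all windows. Another RefSeq window of Meg3, at chr12:109545148-109545447, held 1 CpG and no match. A match is a string of letters in a window and no evidence of binding. RefSeq windows were matched for 8 of the 10 genes, and H19 and Cdkn1c had none.

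Meg3 (ENSMUSG00000021268), a non-coding RNA known as a growth suppressor, was at 47.8, 67.2, 71.1, 36.5 and 61.6 CPM in replicates 1 to 5 at 2% CO2, against 108, 152, 122, 109.8 and 60.5 CPM at 10% CO2. All 2% CO2 libraries lay below 4 of the 5 libraries at 10% CO2, and the groups overlapped only through 10% CO2 replicate 5, a shallow library in which Meg3 held 54 counts (exact Poisson 95% interval 45.5 to 79.0 CPM, counting error only). The means were 56.8 CPM under 2% CO2 (SD 14.4) and 110.5 CPM under 10% CO2 (SD 33.0, n = 5 each). The log2 fold change was -1.11 ± 0.18 (SE), 0.462 times the 10% CO2 level, with an adjusted p of 0.00113 by the edgeR quasi-likelihood test. In bulk RNA, fewer cells with a transcript and less of it per cell cannot be told apart.

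Rian (ENSMUSG00000097451), the host of a series of box C/D small nucleolar RNAs, stood at 8.58, 2.80, 16.8, 4.78 and 8.97 CPM at 2% CO2, against 18.3, 23.1, 18.3, 14.1 and 12.3 CPM at 10% CO2. Within each batch the groups did not overlap, and across batches they overlapped through 2% CO2 replicate 3, which rested on 8.5 estimated counts. The share of all tested genes without overlap within batches was not computed, here or for the genes below. Replicate 2 at 2% CO2 held 0.5 estimated counts. Its mean was 8.38 CPM under 2% CO2 (SD 5.37) and 17.2 CPM under 10% CO2 (SD 4.20, n = 5 each), with log2 fold change -1.12 ± 0.22 (SE, adjusted p = 0.00312 by edgeR).

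Mirg (ENSMUSG00000097391), the host of the microRNA cluster next to Dio3, was at 4.20, 0, 1.97, 2.99 and 3.90 CPM at 2% CO2, against 7.29, 8.35, 6.29, 6.32 and 6.72 CPM at 10% CO2. The measured values of both groups did not overlap, which held for 1.99% of all tested genes in this direction. The value of 0 in 2% CO2 replicate 2 allows up to 16.8 CPM, above every library at 10% CO2, and 2% CO2 replicate 3 held 1 count. Mirg averaged 2.61 CPM under 2% CO2 (SD 1.70) and 6.99 CPM under 10% CO2 (SD 0.857, n = 5 each), with log2 fold change -1.01 ± 0.24 (SE, adjusted p = 0.00919 by edgeR). Without 10% CO2 replicate 4 its adjusted p was 0.0773, while Meg3 and Rian passed in all 10 fits that left out a library, with adjusted p up to 0.0138 and 0.0468. Without the 3 libraries under 1000000 counts, the log2 fold changes were -1.32 for Meg3, -1.17 for Rian and -0.91 for Mirg, with adjusted p of 0.00406, 0.0125 and 0.0340.

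Dlk1 (ENSMUSG00000040856), a transmembrane protein of the Notch ligand family that restrains fat cell formation, lies beside Meg3. It was at 3.81, 5.60, 11.8, 2.91 and 6.81 CPM at 2% CO2, against 5.27, 6.57, 4.32, 3.21 and 5.60 CPM at 10% CO2. The groups overlapped, and the highest library, 2% CO2 replicate 3, rested on 6 counts. The log2 fold change was 0.19 ± 0.32 (SE, adjusted p = 0.772 by edgeR).

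**Figure D1:**
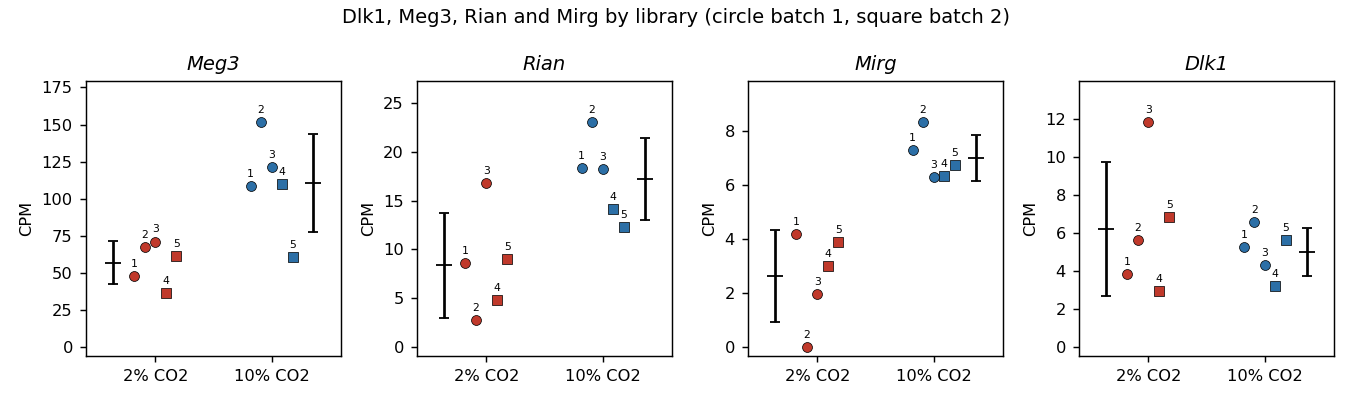
CPM (linear axis) of Meg3, Rian, Mirg and Dlk1 in each library at 2% CO2 (red, left) and 10% CO2 (blue, right), with circles for batch 1, squares for batch 2, the replicate number above each point and the mean with SD beside each group. Meg3 averaged 56.8 CPM at 2% CO2 and 110.5 CPM at 10% CO2, Rian and Mirg show the same order, and the Dlk1 groups overlap.

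Because Meg3 and Dlk1 are read from opposite parental copies of one region, their ratio was also compared within each library, after the levels had been seen. The log2 ratio of Meg3 to Dlk1 averaged 3.19 ± 0.46 at 2% CO2 and 4.41 ± 0.68 at 10% CO2 (SD, n = 5 each). The difference within batches was -1.22 (-1.51 in batch 1 and -0.79 in batch 2), with an exact two-sided permutation p of 0.0333, where 120 arrangements within batches allow no p below 0.0167. Over the 5 ratios compared, the Benjamini-Hochberg adjusted p was 0.167, so it did not pass. The log2 ratio of Rian to Meg3 was -2.76 ± 0.60 at 2% CO2 and -2.64 ± 0.26 at 10% CO2, and that of Mirg to Meg3 was -4.05 ± 0.56 at 2% CO2 and -3.90 ± 0.49 at 10% CO2. These ratios differed by -0.12 and -0.15 within batches, with exact permutation p of 0.8 and 0.667.

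In the rest of the region from Dlk1 to Dio3, 89 of 103 RefSeq genes were rows of the table, but only 5 had enough counts to be tested. The fifth was Gm3379, a processed pseudogene whose counts were fractional in all 10 libraries and are uncertain (a log2 fold change of -0.12, adjusted p = 0.647). Rtl1, the paternally expressed retrotransposon-derived gene, held 1 count in all libraries together, and Dio3, the deiodinase that inactivates thyroid hormone, held 25. The 75 rows of microRNAs and small nucleolar RNAs held 51.0 counts in sum, of which 27.0 belonged to Mir1906-1. In a separate list of 58 microRNA hairpins of the region, without Mir1906-1, 50 rows were at 0 and the sum was 5.5 counts. Such small RNAs are poorly captured by libraries made from messenger RNA, so these rows say nothing of the mature small RNAs.

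Of the 5 tested genes on each side of that region, 2 of 10 passed the test, beside 12% of all tested genes. Both lay on the Dlk1 side and were lower at 2% CO2: Eml1, a microtubule-associated protein (a log2 fold change of -1.32 ± 0.28, adjusted p = 0.00464), and Evl, an actin regulator (-0.60 ± 0.15, adjusted p = 0.0159). Between them and Dlk1, Yy1, Slc25a29 and Slc25a47 gave log2 fold changes of -0.02, -0.11 and 0.05 and did not pass. Past Dio3, Gm6988, Ppp2r5c, Gm19605, Dync1h1 and Hsp90aa1 lay between -0.12 and 0.28 and did not pass either.

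**Figure D2:**
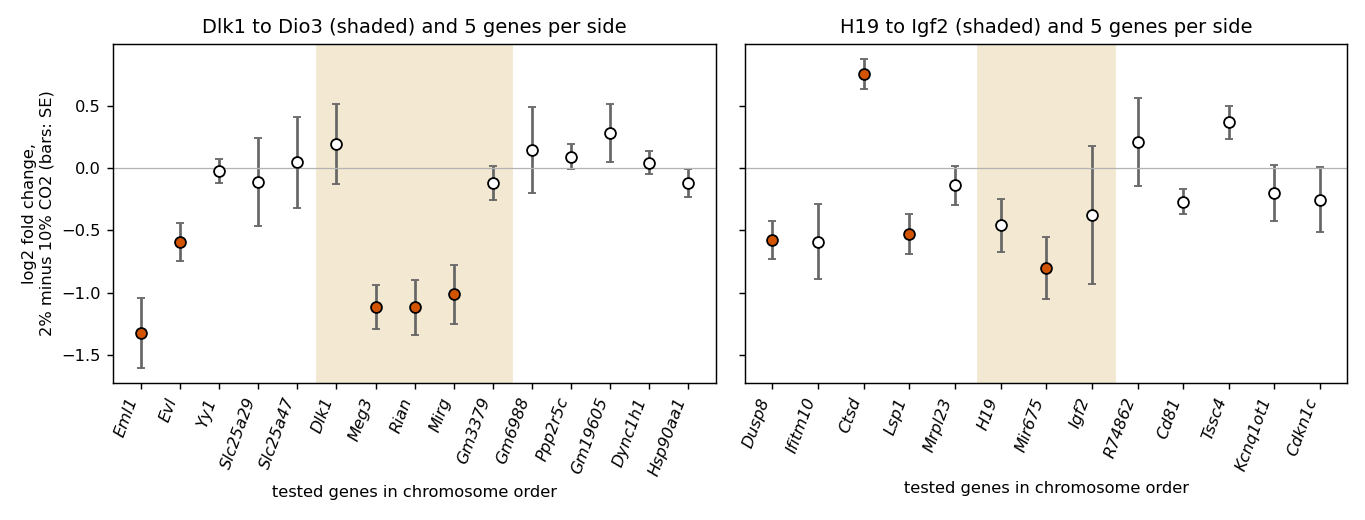
Log2 fold change (2% minus 10% CO2, bars SE, linear axis) of the tested genes from Dlk1 to Dio3 and from H19 to Igf2 (shaded) and of 5 tested genes on each side, in RefSeq order, filled where the adjusted p was under 0.05. Meg3, Rian and Mirg lie between -1.12 and -1.01, with Dlk1 at 0.19 and Yy1 at -0.02 beside them.

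By its pattern over the 7 libraries of at least 1000000 counts, Rian was the gene nearest to Meg3 among 13197 others. The mean absolute difference of their centred log2 CPM was 0.115, beside a median of 0.704 over all tested genes. Mirg ranked at 39 with a difference of 0.243, and it differed from Rian by 0.217. Dlk1 ranked at 3219 with a difference of 0.599. The other genes nearest to Meg3 were Itga11 (an integrin chain that binds collagen) at 0.131, Six5 (a homeobox factor) at 0.15 and Arsi (a sulfatase) at 0.174, whose own log2 fold changes were -1.27, -1.12 and -1.29. These likenesses describe 7 libraries, in which batch and CO2 level are shared by all genes.

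Around H19, neither H19 nor Igf2 passed the test with batch as a covariate. With the replicate number fitted as a block both passed (edgeR adjusted p of 0.000883 and 0.00501). Whether the number pairs the libraries is not known here, so the calls of H19 and Igf2 depend on the model chosen. H19 (ENSMUSG00000000031), an abundant RNA of fetal mesoderm and endoderm, was at 633, 355, 339, 267 and 283 CPM at 2% CO2, against 803, 481, 473, 416 and 329.5 CPM at 10% CO2. Replicate 1 was the highest library at both levels, and the groups overlapped in batch 1 but not in batch 2. The means were 376 CPM under 2% CO2 (SD 149) and 500.2 CPM under 10% CO2 (SD 179.5, n = 5 each), with log2 fold change -0.46 ± 0.21 (SE, adjusted p = 0.203 by edgeR). The value moved with single libraries: it was -0.71 without 2% CO2 replicate 1 (edgeR adjusted p = 0.0195) and -0.31 without 10% CO2 replicate 1 (adjusted p = 0.378). Without the 3 shallow libraries it was -0.25 (adjusted p = 0.578).

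Igf2 (ENSMUSG00000048583), a fetal growth factor that signals through Igf1r, stood at 51.9, 11.2, 12.8, 45.1 and 21.0 CPM at 2% CO2, against 71.5, 22.9, 23.2, 61.2 and 24.7 CPM at 10% CO2. Replicates 1 and 4 were the highest libraries at both levels, and the groups overlapped. The log2 fold change was -0.38 ± 0.55 (SE, adjusted p = 0.746 by edgeR). The log2 ratio of H19 to Igf2 within libraries was 3.84 ± 0.87 at 2% CO2 and 3.74 ± 0.67 at 10% CO2 (SD, n = 5 each), a difference of 0.10 within batches (exact permutation p = 0.633). That of Meg3 to H19 was -2.68 ± 0.64 at 2% CO2 and -2.17 ± 0.49 at 10% CO2, a difference of -0.51 (exact permutation p = 0.217). The genes nearest to H19 in pattern were Snhg20, Hacd1, Acads and Krt7, with differences of 0.115, 0.131, 0.136 and 0.146, beside a median of 0.534 over all tested genes. Igf2 differed from H19 by 0.527.

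H19 carries a microRNA in its first exon, miR-675, whose mature arms are shown because the row of its hairpin was counted apart from H19. Capitals mark the seed, bases 2 to 8. The arms lie on the minus strand of GRCm38.p6 at chr7:142577112-142577133 (5p) and chr7:142577078-142577099 (3p).
miR-675-5p: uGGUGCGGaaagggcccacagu
miR-675-3p: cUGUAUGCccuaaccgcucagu
The Mir675 row held 514.5 estimated counts in all libraries. Its level was 7.45 CPM under 2% CO2 (SD 4.49) and 10.7 CPM under 10% CO2 (SD 5.37, n = 5 each), with log2 fold change -0.80 ± 0.25 (SE, adjusted p = 0.0448 by edgeR). The row overlaps an exon of H19, so its reads cannot be told apart from those of the host and are no measure of the mature microRNA. Among the 5 tested genes on each side of H19 and Igf2, 3 of 10 passed, beside 12% of all tested genes. The lysosomal protease gene Ctsd was higher by 0.75 on the log2 scale (edgeR adjusted p = 0.000383). Dusp8 (a phosphatase of stress kinases) and Lsp1 (an actin-binding protein) fell by 0.58 and 0.53 (adjusted p of 0.0206 and 0.0363).

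Cdkn1c (ENSMUSG00000037664), which encodes the cyclin-dependent kinase inhibitor p57, lies in the neighbouring imprinted region of chromosome 7. It was at 50.4, 44.8, 35.5, 42.5 and 21.2 CPM at 2% CO2, against 50.2, 37.7, 41.7, 52.3 and 23.5 CPM at 10% CO2. Replicate 5 was lowest at both levels, the groups overlapped, and the log2 fold change was -0.25 ± 0.26 (SE, adjusted p = 0.612 by edgeR). Kcnq1ot1, the non-coding RNA that silences Cdkn1c on the paternal copy, gave a log2 fold change of -0.20 (adjusted p = 0.643).

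Plagl1 (ENSMUSG00000019817), a paternally expressed zinc finger transcription factor also known as Zac1, went the other way. Its level was 25.7, 28.0, 25.7, 17.04 and 15.3 CPM at 2% CO2, against 17.8, 20.7, 14.6, 10.46 and 8.97 CPM at 10% CO2. Within each batch every library at 2% CO2 lay above every library at 10% CO2, but how many of all tested genes do so was not computed. Across batches the groups overlapped because both levels were lower in batch 2. The means were 22.3 CPM under 2% CO2 (SD 5.72) and 14.5 CPM under 10% CO2 (SD 4.90, n = 5 each), with log2 fold change 0.54 ± 0.14 (SE, 1.46 times the 10% CO2 level, adjusted p = 0.0198 by edgeR). The adjusted p was above the threshold without 2% CO2 replicate 1 (0.0740), 2% CO2 replicate 4 (0.0653) or 10% CO2 replicate 4 (0.0951), and was 0.0616 without the 3 shallow libraries.

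Peg3 (ENSMUSG00000002265), a paternally expressed zinc finger protein, was at 5.72, 16.8, 17.8, 15.1 and 20.6 CPM at 2% CO2, against 11.1, 25.0, 23.7, 13.5 and 13.4 CPM at 10% CO2. The groups overlapped in batch 1, while both 2% CO2 libraries of batch 2 lay above both at 10% CO2, and the log2 fold change was -0.29 ± 0.36 (SE, adjusted p = 0.688 by edgeR). Mest (ENSMUSG00000051855), a paternally expressed hydrolase-like protein of mesodermal tissue, was at 5.72, 16.8, 17.8, 7.85 and 11.9 CPM at 2% CO2, against 8.78, 13.02, 22.3, 12.3 and 16.8 CPM at 10% CO2. In 2% CO2 replicates 1 to 3 its counts were those of Peg3 (15, 3 and 9). Its groups overlapped too, and the log2 fold change was -0.62 ± 0.31 (SE, adjusted p = 0.228 by edgeR). With the replicate number fitted as a block Mest passed (edgeR adjusted p = 0.0233).

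**Figure D3:**
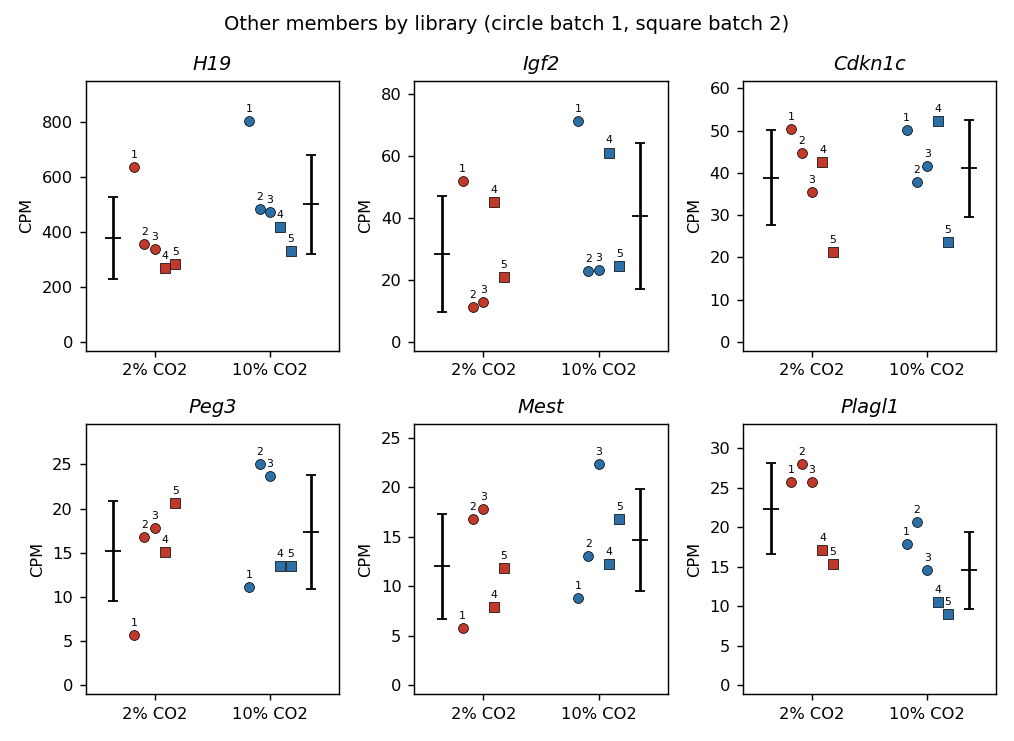
CPM (linear axis) of H19, Igf2, Cdkn1c, Peg3, Mest and Plagl1 in each library at 2% CO2 (red, left) and 10% CO2 (blue, right), with circles for batch 1, squares for batch 2, replicate numbers above the points and the mean with SD beside each group. Plagl1 averaged 22.3 CPM at 2% CO2 and 14.5 CPM at 10% CO2, and Igf2 is highest in replicates 1 and 4 at both levels.

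The next question was whether these differences held within each batch. In batch 1 alone (3 libraries per level), 763 of 12275 genes (6.22%) passed the test (2.66% higher and 3.56% lower), Meg3 and Rian among them with log2 fold changes of -1.21 ± 0.18 and -1.12 ± 0.31 (SE, edgeR adjusted p of 0.00124 and 0.0396). In batch 2 alone (2 libraries per level), 267 of 14627 genes (1.83%) passed (0.848% higher and 0.978% lower) and none of the 10 did, while Meg3, Rian and Mirg gave -1.03 ± 0.34, -1.10 ± 0.30 and -0.99 ± 0.30 (SE, edgeR adjusted p of 0.211, 0.108 and 0.135). These batch 2 values rest on single libraries: Meg3 gave -0.41 without 10% CO2 replicate 4 (edgeR adjusted p = 0.778) and -0.68 without 2% CO2 replicate 4 (adjusted p = 0.564). Rian gave -0.72 without 2% CO2 replicate 4 (adjusted p = 0.595). At an unadjusted edgeR p under 0.05, 5 of the 10 genes (Meg3, Rian, Mirg, H19 and Plagl1) passed in batch 2, as did 2805 of all 14627 tested genes. At so large a share over all genes, this count is no support for the 5. Mirg gave -1.04 ± 0.42 in batch 1 (adjusted p = 0.148) and -2.43 ± 1.03 there without 2% CO2 replicate 1 (SE, edgeR adjusted p = 0.256), and Plagl1 gave 0.54 ± 0.22 in batch 1 and 0.57 ± 0.20 in batch 2 without passing in either. In batch 1, Rian lost the call without 2% CO2 replicate 1 or 2 or without 10% CO2 replicate 2 or 3, with adjusted p up to 0.406.

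No gene passed the test of the difference between the batches' CO2 effects (0 of 13198, 0%, by edgeR, beside 1155 at an unadjusted p under 0.05). Peg3 had the smallest interaction p of the 10 genes, with log2 fold changes of 0.30 ± 0.21 in batch 2 and -1.23 ± 0.47 in batch 1 (SE), an interaction (batch 2 minus batch 1) of 1.53 ± 0.59 and an adjusted p of 0.525. Without 2% CO2 replicate 1 its batch 1 value was -0.33 (edgeR adjusted p = 0.892) and the interaction 0.63, and without 2% CO2 replicate 5 its batch 2 value was 0.082 (adjusted p = 0.968). For Meg3, Rian, Mirg and Plagl1 the interaction was between 0.01 and 0.19, with SE between 0.29 and 0.53.

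**Figure D4:**
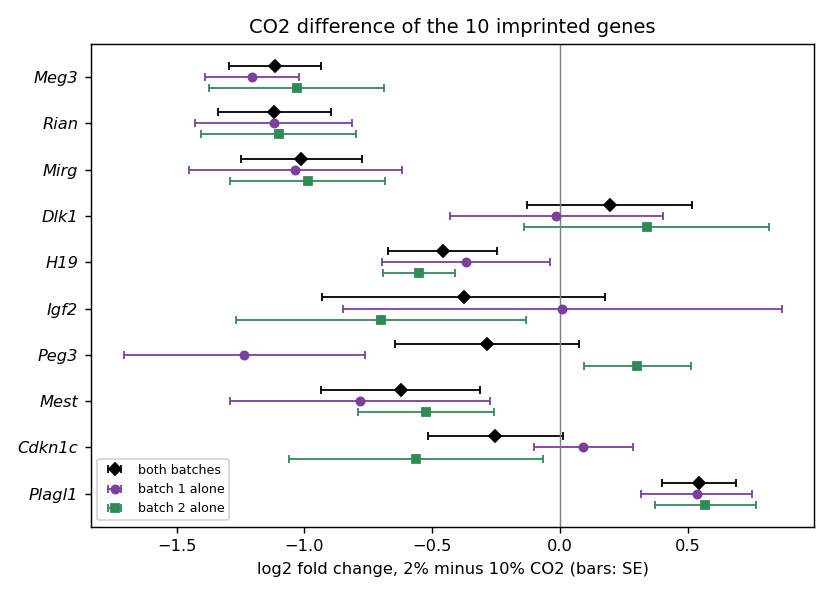
Log2 fold change (2% minus 10% CO2, linear axis, bars SE) of the 10 genes over both batches (black), in batch 1 alone (purple) and in batch 2 alone (green). Meg3, Rian and Mirg lie between -1.21 and -0.99, Plagl1 between 0.54 and 0.57, and Peg3 lies at 0.30 in batch 2 and -1.23 in batch 1.

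Between the batches themselves, 36% of all tested genes differed (17.4% higher and 18.5% lower in batch 2), and 2 of the 10 imprinted genes were lower in batch 2 than in batch 1, H19 by a log2 fold change of -0.71 ± 0.22 and Plagl1 by -0.77 ± 0.15 (SE, edgeR adjusted p of 0.0261 and 0.000547). H19 did not pass without 2% CO2 replicate 4, 2% CO2 replicate 5 or 10% CO2 replicate 5, with adjusted p up to 0.0964. Several of the genes varied widely among libraries of the same CO2 level and batch. Over the 7 libraries of at least 1000000 counts, after removing the means of CO2 level and batch, the SD of log2 CPM was 0.94 for Igf2, beside a median of 0.15 for genes of like abundance (mean log2 CPM within 0.5). It was 0.74 for Peg3 (median 0.18), 0.55 for Mest (0.18), 0.52 for Cdkn1c (0.15), 0.49 for Dlk1 (0.25) and 0.41 for H19 (0.13). Meg3 and Rian lay at 0.30 and 0.32 (medians 0.14 and 0.20), and Plagl1 and Mirg at 0.19 and 0.18 (medians 0.17 and 0.28).

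The last question was whether other imprinted genes shared the difference of Meg3, Rian and Mirg. Of 45 listed imprinted genes outside the 10, 43 were in the table and 25 were tested. Of these 25, 1 was higher (4%) and 3 were lower (12%) at 2% CO2, beside 5.3% and 6.73% of all tested genes. Their median log2 fold change was -0.20. At -1 or below, where Meg3, Rian and Mirg lay, were 0 of the 25 and 215 of all 13198 tested genes. At so small a share over all genes, the 0 does not set this list apart. Airn, the non-coding RNA that silences Igf2r on the paternal copy, was nearest to Meg3, Rian and Mirg in log2 fold change over both batches. It averaged 6.93 CPM under 2% CO2 (SD 4.03) and 15.4 CPM under 10% CO2 (SD 6.14, n = 5 each). Its log2 fold change was -0.98 ± 0.24 (SE, adjusted p = 0.0126 by edgeR). Within batches it was uneven, unlike those 3 genes: -0.40 ± 0.32 in batch 1 and -1.32 ± 0.26 in batch 2 (SE, edgeR adjusted p of 0.502 and 0.0408). The interaction was -0.91 ± 0.45 (SE, edgeR adjusted p = 0.588) and did not pass. Its groups did not overlap, as for 1.99% of all tested genes in this direction, but it was at 0 in 2% CO2 replicate 2, where the limit is 16.8 CPM. Igf2r, its target, averaged 111 CPM under 2% CO2 (SD 31.9) and 109.8 CPM under 10% CO2 (SD 30.9, n = 5 each) and did not pass.

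Grb10, a maternally expressed adaptor that dampens insulin and growth factor receptors, and Slc38a4, a paternally expressed amino acid transporter, fell by 0.34 and 0.38 on the log2 scale (edgeR adjusted p of 0.0264 and 0.0367). Neither passed with scaling to library totals (edgeR adjusted p of 0.115 and 0.126) or without the filter on low counts (0.0818 and 0.0582). Blcap rose by 0.50 (adjusted p = 0.0270). None of these 4 genes, Airn included, passed without 2% CO2 replicate 4 or without 10% CO2 replicate 4 (adjusted p of 0.0579 and 0.0757 for Airn). Blcap, Grb10 and Slc38a4 passed in 5, 5 and 3 of 10 leave-one-out fits, with adjusted p up to 0.331, 0.0812 and 0.163. Besides those libraries, Blcap needed 2% CO2 replicate 3 and 10% CO2 replicates 1 and 3, Grb10 needed 2% CO2 replicates 1 and 3 and 10% CO2 replicate 3, and Slc38a4 needed 2% CO2 replicates 1 and 3 and 10% CO2 replicates 1, 2 and 3. Without the 3 shallow libraries, 2 of the other imprinted genes passed. Of the maternally expressed genes of this list, 1 of 13 tested was higher and 1 lower (median -0.10), and of the paternally expressed ones 0 of 12 were higher and 2 lower (median -0.24). Of the listed genes that were not tested, the deepest were Phlda2, Mkrn3 and Dio3 with 89, 78 and 25 counts in all libraries together.

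Meg3, Rian and Mirg are long non-coding RNAs, and of 778 such genes tested, 40 (5.14%) were higher and 33 (4.24%) lower at 2% CO2, with a median log2 fold change of 0.02, and 22 lay at -1 or below, these 3 included. Of 11112 protein-coding genes tested, 5.89% were higher and 7.28% lower.

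Of 25 listed genes that set or keep imprints, 22 were tested and 2 passed, both lower (9.09%), with a median log2 fold change of -0.19. Of all tested genes, 6.73% were lower and 5.3% higher, so the list as a whole lay near the share over all genes. Dnmt3a, the DNA methyltransferase that lays down imprints in the germ line, averaged 14.6 CPM under 2% CO2 (SD 6.85) and 28.3 CPM under 10% CO2 (SD 5.65, n = 5 each), with log2 fold change -1.02 ± 0.14 (SE, adjusted p = 0.00015 by edgeR). Its groups did not overlap, which held for 1.99% of all tested genes in this direction, and it passed in all 10 fits that left out a library. Ehmt2, the histone methyltransferase G9a, averaged 40.2 CPM under 2% CO2 (SD 14.9) and 55.5 CPM under 10% CO2 (SD 13.1, n = 5 each), with log2 fold change -0.51 ± 0.11 (SE, adjusted p = 0.00546 by edgeR). Uhrf1 and Smchd1, which guard DNA methylation and silenced chromatin, gave -0.28 and -0.37 and did not pass (adjusted p of 0.0930 and 0.0991). Dnmt3l, Ctcfl and Dppa3, genes of germ cells and early embryos, held 1, 0 and 0 counts.

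All 15 genes of the insulin-like growth factor axis were tested, and 1 was higher and 1 lower (6.67% each), with a median log2 fold change of -0.15. These shares lay near the 5.3% higher and 6.73% lower of all tested genes. Igfbp3, the main carrier of these factors in serum, averaged 10.3 CPM under 2% CO2 (SD 2.94) and 2.90 CPM under 10% CO2 (SD 1.41, n = 5 each), with log2 fold change 1.97 ± 0.30 (SE, adjusted p = 0.000282 by edgeR). Its groups did not overlap, which held for 3.19% of all tested genes in this direction. Igfbp2 averaged 84.4 CPM under 2% CO2 (SD 59.5) and 148 CPM under 10% CO2 (SD 109.9, n = 5 each), with log2 fold change -0.92 ± 0.20 (SE, adjusted p = 0.0104 by edgeR), which did not pass without 2% CO2 replicate 1 (0.0995) or without the 3 shallow libraries (0.0878). Igfbp5 and the receptor Igf1r gave -0.86 and -0.35 and did not pass (adjusted p of 0.0991 and 0.127).

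**Figure D5:**
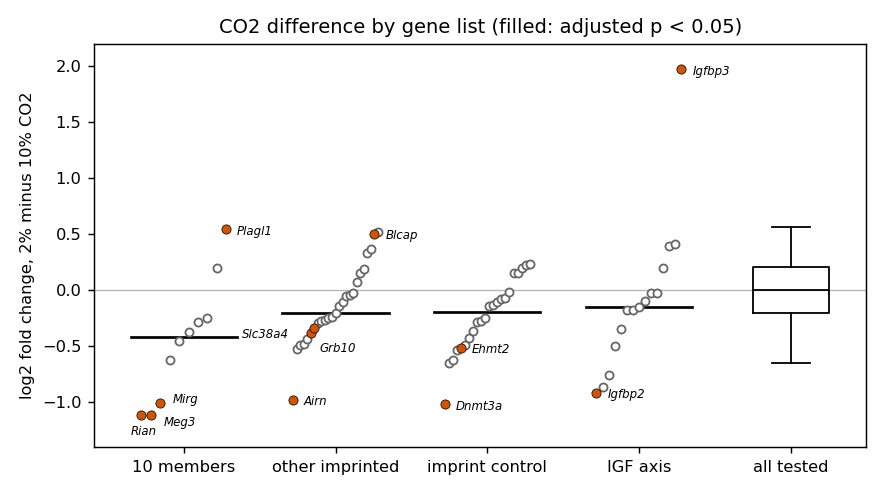
Log2 fold change (2% minus 10% CO2, linear axis) of each tested gene of the 10 imprinted genes, 25 other imprinted genes, 22 genes of imprint control and 15 genes of the insulin-like growth factor axis, with the median of each list as a line, filled points where the adjusted p was under 0.05, and a box with whiskers at the 5th and 95th percentiles for all 13198 tested genes. Meg3, Rian and Mirg lie below -1 with a list median of -0.42, beside -0.20 for the other imprinted genes.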

How the data were processed

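Messenger RNA was turned into cDNA, tagmented and amplified, per the labels' protocols. The submitters' processing notes name build GRCm39 and the tools featureCounts (Subread 2.1.1), STAR 2.7.11, MultiQC 1.32 and SAMtools 1.22.1. The sources used here do not give settings, strand or annotation, so overlapping genes cannot be told apart. The authors deposited estimated counts per gene for each library, without normalization, and a second table of CPM. CPM were computed here from the counts and library totals. The 92 spike-in rows, all at 0, were left out.

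Counts were rounded and tested with edgeR 4.0.16 (R 4.3.3) over all genes passing filterByExpr (minimum count 10, minimum total 15), with TMM scaling and robust quasi-likelihood fits of CO2 with batch as a covariate. Calls are two-sided at a Benjamini-Hochberg adjusted p under 0.05. An SE is the log2 fold change over the square root of F. The batches were also fitted alone, and the interaction in its own model. Scripts were tested on simulated data. Alternatives were DESeq2 1.42.0, voom of limma 3.58.1 on unrounded counts, scaling by RLE or by library total, no filter, 10 CPM in 5 libraries, no batch term, a replicate block, each library left out, and fits without libraries under 1000000 counts. Ratios took a pseudocount of 0.5 counts and an exact permutation within batches, and were added after seeing the data.

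Named were all 10 genes, up to 4 genes per list by smallest adjusted p and every called one where no more than 8 were called, and the 4 genes nearest to Meg3 and to H19 on log2 CPM (prior count 2). Neighbours of Meg3 and H19 and the Mir675 row, Igf2r and Kcnq1ot1 were named for their position, and the untested genes Phlda2, Mkrn3, Rtl1, Dio3, Dnmt3l, Ctcfl and Dppa3 for their counts. The 10 genes and the lists were chosen with earlier results of these data known. Sequences and gene order are from RefSeq (GRCm38.p6), matched by symbol.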

Additional observations from a re-analysis of the deposited data

Results flagged for a closer look

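H19 in 2% CO2 replicate 1, at 633 CPM, lay apart from the other 4 libraries at 2% CO2, which were between 267 and 355 CPM. The gap to the nearest library exceeded the 95% critical value of Dixon's test, 0.71 of the range. It was the only one of 20 sets of libraries tested (10 genes at each CO2 level) to do so, and chance flags about 1 in 20. H19 was also highest in replicate 1 at 10% CO2, at 803 CPM.

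Peg3 values differed in opposite directions in the batches. In batch 2, its level at 2% CO2 was above that of the same-numbered library at 10% CO2 for replicates 4 and 5, and in batch 1 it was below it for replicates 1, 2 and 3. The interaction was 1.53 on the log2 scale (batch 2 minus batch 1) with an unadjusted p of 0.0230 and an adjusted p of 0.525 by edgeR, and did not pass. It was 0.63 without 2% CO2 replicate 1, where the batch 1 log2 fold change was -0.33 in place of -1.23, and the batch 2 value was 0.082 without 2% CO2 replicate 5 in place of 0.30.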

How the results depend on the processing

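Meg3, Rian and Mirg were lower and passed under all alternatives run on both batches, except Mirg without 10% CO2 replicate 4 and under the filter of 10 CPM in 5 libraries, where it was not tested. Plagl1 did not pass without the batch term (0.35, adjusted p = 0.564). Without the batch term 351 of 13198 genes passed over both batches. So did 0 of the other imprinted genes, 0 of the genes of imprint control and 1 of the insulin-like growth factor axis (Igfbp3). DESeq2 called 4 genes of imprint control. The exact permutation p of the Meg3 to Dlk1 ratio ran from 0.0167 to 0.0667 without single libraries. Without the filter on low counts, 1211 of 28474 genes and 3 of the 10 (Meg3, Rian and H19) passed in batch 2. With that setting 104 of 31794 genes and 1 of the 10 (Peg3) passed the interaction. Over both batches 1693 of 31794 genes and 6 of the 10 passed, now with H19 and Mest (edgeR adjusted p of 0.00439 and 0.0423). Igf2 in batch 1 turned to -0.045. With a pseudocount of 1 the ratio of Mirg to Meg3 differed by 0.10. Leaving out each library in turn, over both batches 736 to 1724 genes and 2 to 4 of the 10 passed, in batch 1 286 to 840 and 1 to 3, in batch 2 10 to 294 and 0 to 1, in the interaction 0 to 135 and 0 to 0, and between the batches 3253 to 5260 and 1 to 3. Log2 fold changes ran from -0.17 to 0.47 for Dlk1, -0.70 to 0.15 for Peg3, -0.86 to 0.045 for Igf2 and -0.51 to 0.12 for Cdkn1c over both batches, from -0.44 to 0.79 for Dlk1, -1.83 to 0.74 for Igf2, -1.17 to 0.11 for Mest and -0.29 to 0.22 for Cdkn1c in batch 1, and from -0.45 to 0.77 for Dlk1, -1.34 to 0.32 for Igf2 and -1.15 to 0.33 for Cdkn1c in batch 2. Differences of log2 ratios ran from -0.073 to 0.32 for H19 to Igf2, -0.32 to 0.13 for Rian to Meg3 and -0.37 to 0.025 for Mirg to Meg3. The cause of these changes was not tested. Depth limits Rian, Mirg and Dlk1, which held 818.9, 336.5 and 298 counts in all libraries together.

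Both CO2 levels use the same replicate numbers. Libraries with 1 number deviated from their group means with correlations of 0.471, 0.0926, 0.209, 0.636 and 0.167. With batch means removed too, the correlations were 0.172, 0.104, 0.0443, 0.186 and 0.186. Those of replicates 4 and 5 are equal by construction, because batch 2 holds only 2 libraries per level. All correlations were positive but uneven. The lowest before batch means were removed, in replicates 2, 3 and 5, each involve a shallow library (178676, 506405 and 892318 counts). They therefore do not settle whether the number pairs the libraries, and the main test did not use the number. Between libraries of the same number, H19 and Igf2 were lower at 2% CO2 in 5 of 5 and Mest in 4 of 5. With the replicate block 1927 of 13198 genes and 7 of the 10 passed, and Dlk1 turned to -0.0030. H19, Igf2 and Mest passed in addition (-0.51, -0.52 and -0.61, edgeR adjusted p of 0.000883, 0.00501 and 0.0233). In batch 1 the block turned Igf2 to -0.57, Dlk1 to 0.14 and Cdkn1c to -0.053. In batch 2, 1480 of 14627 genes and 2 of the 10 (Rian and H19) passed and Dlk1 turned to -0.10. With the block 118 of 13198 genes passed the interaction.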

Other observations

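Some other imprinted genes differed between the batches, at no larger a share than all tested genes. Of the 25 tested genes of the imprinted list outside the 10, 3 were higher and 4 lower in batch 2 than in batch 1. Of all tested genes, 17.4% were higher and 18.5% lower, so this list does not stand out. Nnat, a small membrane protein of neural and fat tissue, had a log2 difference of -1.37 between batch 2 and batch 1, Ndn, a growth suppressor related to the MAGE proteins, one of -0.72, Mcts2 one of -0.64 and Tssc4 one of -0.47. Gnas, which encodes the stimulatory G protein alpha subunit, was higher by 0.58, Ube3a, a ubiquitin ligase, by 0.51 and Slc38a4 by 0.40. Of the 22 tested genes of imprint control, 11 were higher in batch 2 and 0 were lower, beside 17.4% and 18.5% of all tested genes. Igfbp2, lower at 2% CO2, had a log2 difference of -2.34 between batch 2 and batch 1.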
